A study of Mus musculus with 8 samples.

Results

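The genes described here are 10 interferon-inducible GTPases of the mouse, chosen by name: the guanylate-binding proteins Gbp2, Gbp3, Gbp4, Gbp5 and Gbp7, and the immunity-related GTPases Iigp1, Tgtp2, Irgm1, Irgm2 and Igtp. They are 10 of the 32285 genes counted in each library. Livers of 8 female C57BL/6J mice, 9 weeks old, were profiled by droplet single-cell RNA sequencing. The BG group (replicates 5 to 8) holds 4 mice given 1.2 mg of the soluble yeast β-glucan Imprime PGG (Odetiglucan) into a vein 2 days before the liver was taken. The Control group (replicates 1 to 4) holds 4 mice labelled only as control, and each library is 1 mouse. The cells were enriched for CD45+ leukocytes, to which the buffy coat of the remaining cells was added, so that the non-leukocytes present were what that step carried over.

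Both families are switched on by interferon gamma, which signals from its receptor through JAK kinases to transcription factors in the nucleus, and many of their members also answer type I interferon. The guanylate-binding proteins are dynamin-like GTPases that gather on the vacuoles and membranes of intracellular pathogens and feed inflammasome activation. Among the immunity-related GTPases, Iigp1 and Tgtp2 are effectors that load onto pathogen vacuoles, whereas Irgm1, Irgm2 and Igtp are regulators that sit on the cell's own membranes and hold the effectors inactive there. In the liver these genes are read as markers of cells that have received interferon.

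In the GENCODE annotation of GRCm38, the build that the deposited counts use, Gbp5, Gbp7, Gbp3 and Gbp2 lie in this order on the plus strand, with Gbp2b between the last pair (chr3:142493978-142522344, chr3:142530342-142550149, chr3:142560026-142573209 and chr3:142620602-142638008). Gbp4 lies on the minus strand at chr5:105115767-105139586, among further genes of its family. Irgm1 (chr11:48861968-48871683) and Tgtp2 (chr11:49057194-49064206) are on the minus strand, and Igtp (chr11:58199556-58207591) and Irgm2 (chr11:58199618-58222782) overlap each other on the plus strand. Tgtp2 has a near-identical neighbour, Tgtp1 (chr11:48985327-48994172), so counts of Tgtp2, of the overlapping pair Igtp and Irgm2, and of Gbp4 depend on how reads were shared between the genes and are uncertain to that extent.

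The promoters of these genes share a short sequence that the choice of genes did not use. RefSeq promoters (GRCm38.p6, 250 bases before to 50 bases after a transcription start) were at hand for 8 of the 10 genes. Each of the 8 had the letters GAAA, any 2 bases and GAAA again, the core of an interferon-stimulated response element, on one strand or the other in 1 promoter (8 of their 9 promoters), compared with 3.443% of the 32851 promoters of all genes (1131 promoters). Windows around the match to the response element are shown for the 6 genes that passed the test in endothelial cells and have a promoter in the table so that the shared letters can be compared. They were read 5′ to 3′ on the gene's own strand, from chr3:142620584-142620633 (Gbp2, plus), chr3:142559979-142560034 (Gbp3, plus), chr3:142530263-142530312 (Gbp7, plus), chr11:48871415-48871470 (Irgm1, minus), chr11:58214893-58214942 (Irgm2, plus) and chr11:58199502-58199551 (Igtp, plus). Capitals mark the match, which reads TTTC, 2 bases and TTTC where it lies on the opposite strand, and where 2 matches overlap both are in capitals.
Gbp2: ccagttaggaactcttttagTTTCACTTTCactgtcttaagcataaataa
Gbp3: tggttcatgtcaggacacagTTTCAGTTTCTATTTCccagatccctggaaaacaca
Gbp7: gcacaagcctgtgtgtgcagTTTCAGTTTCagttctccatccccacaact
Irgm1: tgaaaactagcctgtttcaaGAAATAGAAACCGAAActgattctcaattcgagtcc
Irgm2: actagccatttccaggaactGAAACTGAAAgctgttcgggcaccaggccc
Igtp: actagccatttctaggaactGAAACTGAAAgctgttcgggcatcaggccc

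The match began 59 bases upstream of the start in Gbp2, 45 in Gbp3, 53 in Gbp7, 30 in Irgm1, 64 in Irgm2 and 34 in Igtp. The 3 guanylate-binding protein windows carried it on the strand opposite to the gene and the 3 regulator windows on the gene's strand. The windows of Igtp and Irgm2 were identical at 48 of 50 bases. A match of letters is a description of the sequence and says nothing of what bound there.

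The 8 libraries held 10745 to 27873 barcodes, and 48465 cells were kept after filters on detected genes (200 to 2500) and on mitochondrial UMIs (up to 30%), 4330 to 5780 per BG mouse and 6222 to 7790 per control mouse. A UMI (unique molecular identifier) counts 1 captured RNA molecule. BG replicate 5 stood apart, with a median of 34 genes per barcode and 66.6% mitochondrial UMIs before filtering, compared with 685 to 1133 genes and 30.5 to 41.9% in the other 7 libraries, and pairs of libraries shared at most 0.4179% of their barcodes. Cells were assigned to classes by marker genes, which placed 36807 cells and left 5366 that passed no marker list. A further 6292 that passed lists of several lineages, or several lists equally well, were set aside. UMIs were then summed per mouse and class. Member levels are given as CPM (UMIs of the gene per 1000000 UMIs of the genes kept by a low-count filter in that class). That filter kept 11253 genes in T cells, 1783 in Kupffer cells and 397 in neutrophils. The fewer genes kept, the higher a CPM stands against a value per all UMIs, which limits comparisons between classes. Sums of marker lists are per 1000000 UMIs of all genes. Because the data are 3′ counts, levels are compared between classes or mice for the same gene and not between genes. In these sums, fewer expressing cells and less RNA per cell cannot be told apart.

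At 2 days after BG, members of both families were higher in several liver cell classes, and most of them in sinusoidal endothelial cells. A gene was called higher or lower where the adjusted p of edgeR's quasi-likelihood test (Benjamini-Hochberg over all genes tested in the class) was under 0.05 and the log2 fold change, BG over Control, beyond 0.5 in either direction. Members passed the filter on low counts in 11 of the 13 classes that could be tested, giving 70 gene and class pairs, of which 16 were called higher and 0 lower (over all genes in the same classes, 1.25% of pairs were called higher), and 66 had a positive log2 fold change (range -0.09 to 1.68). The T cell subsets are contained in the T cell class, so these pairs are not independent. Of the 10 genes 8 were called in at least 1 class, and Gbp5 and Tgtp2 in none of the 11. In type 1 dendritic cells and neutrophils no member passed the filter. Below the filter, Gbp7 in neutrophils was lower in every BG mouse (57.5 to 96.0 CPM, 8 UMIs) than in every control mouse (138 to 197 CPM, 19 UMIs). That difference was not tested. Without BG replicate 5, the library that stood apart, 6 members were called in endothelial cells (1.1% of all genes), 3 in B cells (0.992%), 1 in T cells (1.63%), 1 in the other CD4 T cells (0.716%), 0 in Cxcr6+ CD4 T cells (1.02%) and 0 in plasmacytoid dendritic cells (0.52%).

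**Figure D1:**
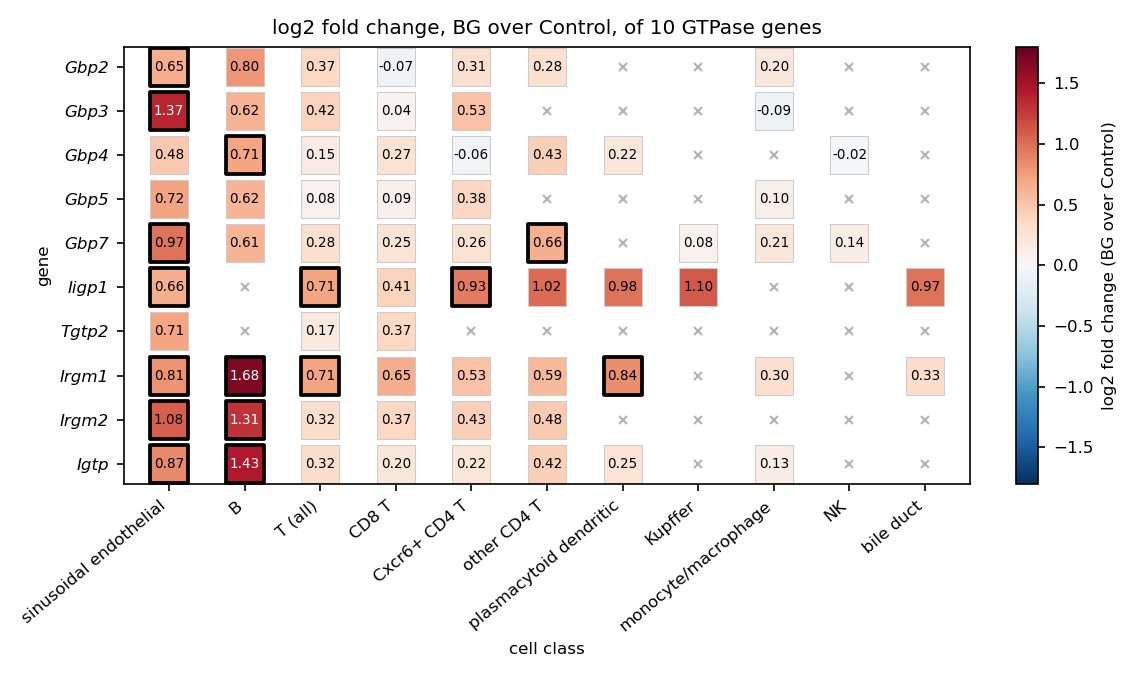
The log2 fold change (BG over Control) of each gene (rows) in each cell class (columns), with a heavy frame where the gene was called and a cross where it did not pass the filter on low counts. The framed squares are densest in sinusoidal endothelial cells (7) and B cells (4), and the largest value is 1.68, for Irgm1 in B cells.

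The sinusoidal endothelial cells line the capillaries of the liver and were identified by markers such as Stab2, a scavenger receptor, and Clec4g, a lectin of this cell type. They comprised 2755 cells of BG mice (276 to 1163 per mouse) and 2472 of control mice (388 to 729), and summed levels of their 8 markers were 14768 to 17103 CPM in BG and 15245 to 17528 CPM in control mice. Of 9872 cells that passed the endothelial list, 4045 also passed the T cell list and were set aside. In the cells that remained, the summed markers of the other classes, and those of hepatocytes, overlapped between the groups. Setting aside cells of several lists limits these sums. All 10 members passed the filter, and 7 were called higher in BG mice, while 1.23% of the 9430 genes tested were called higher. All 10 log2 fold changes were positive, with a median of 0.76 against -0.01 over all genes. In 5 of the 10, every BG mouse was above every control mouse, which held for 2.98% of genes.

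Among the guanylate-binding proteins, Gbp3 changed most in these cells. It was at 87.9, 70.5, 94.1 and 64.9 CPM in BG mice and at 35.0, 28.0, 33.6 and 25.9 CPM in control mice. The groups did not overlap, and the log2 fold change was 1.37 (SE 0.15, adjusted p = 1.65e-05). Gbp7, which in mouse macrophages helps to assemble the NADPH oxidase, had 262, 211, 304 and 260.5 CPM in BG mice, against 188, 106, 123 and 117 CPM in control mice. These values did not overlap either, with a log2 fold change of 0.97 (SE 0.15, adjusted p = 0.000892). Gbp2, which coats vacuoles of Toxoplasma, had 76.7, 61.1, 79.4 and 81.2 CPM in BG mice, against 58.3, 40.5, 45.0 and 45.1 CPM in control mice. The lowest BG mouse was just above the highest control mouse, and the log2 fold change was 0.65 (SE 0.13, adjusted p = 0.0110).

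Gbp4 and Gbp5 did not pass the test in the endothelial cells. Gbp4 was at 177 to 202 CPM in the BG mice and at 218, 103, 126 and 99.7 CPM in the control mice, so that control replicate 1 exceeded all 4 BG mice (log2 fold change 0.48, SE 0.18, adjusted p = 0.44). Gbp5, which promotes assembly of the NLRP3 inflammasome, had 26.1 to 39.0 CPM in BG mice and 15.8 to 28.2 CPM in control mice (log2 fold change 0.72, SE 0.20, adjusted p = 0.104). Without control replicate 1 both were called, Gbp4 with a log2 fold change of 0.77 (adjusted p = 0.000574) and Gbp5 with 0.88 (adjusted p = 0.0216).

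The effector Iigp1 was high in the endothelial cells of both groups. It had 764, 674, 793 and 741 CPM in BG mice and 657, 386, 396 and 451 CPM in control mice. The ranges did not overlap, and the log2 fold change was 0.66 (SE 0.14, adjusted p = 0.0135). Tgtp2 had 14.1 to 22.4 CPM in BG mice and 8.84 to 21.4 CPM in control mice, and did not pass the test (log2 fold change 0.71, SE 0.28, adjusted p = 0.497).

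All 3 regulators rose in the endothelial cells. Irgm1 was at 288, 189.5, 262 and 204 CPM in BG mice and at 149, 139, 118 and 129.5 CPM in control mice, with no overlap (log2 fold change 0.81, SE 0.13, adjusted p = 0.00129). Irgm2 was at 115, 83.6, 129 and 107 CPM in BG mice and at 96.2, 36.9, 45.0 and 34.9 CPM in control mice (log2 fold change 1.08, SE 0.23, adjusted p = 0.0145). Igtp was at 104, 64.5, 79.4 and 90.4 CPM in BG mice and at 71.0, 47.2, 35.8 and 31.5 CPM in control mice (log2 fold change 0.87, SE 0.19, adjusted p = 0.0225). For Irgm2 and Igtp control replicate 1 lay above the lowest BG mouse, and the other 3 control mice lay below all BG mice.

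**Figure D2:**
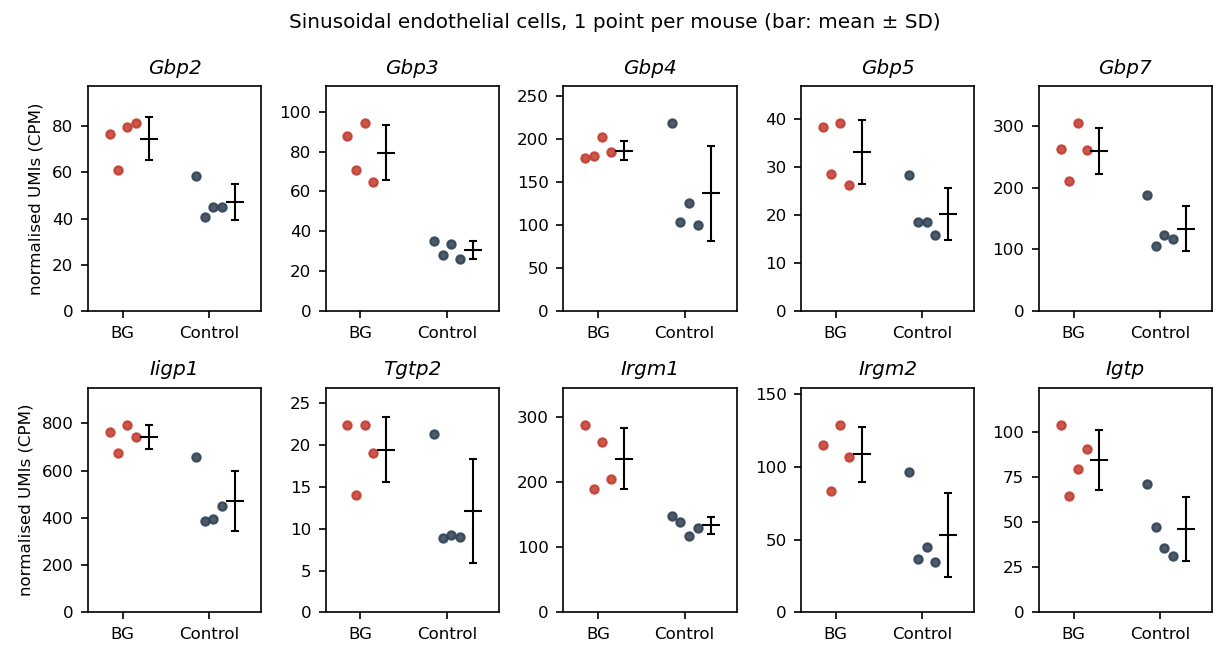
Normalised UMIs (CPM, vertical axes from 0) of the 10 genes in sinusoidal endothelial cells, 1 point per mouse, with BG (red) left of Control (dark) and a bar for the mean ± SD of 4 mice. Control replicate 1, the leftmost dark point, is the highest control point in all 10 panels, and in the Gbp3 panel the lowest BG point is 64.9 CPM and the highest control point 35.0 CPM.

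Control replicate 1 was the highest of the 4 control mice for all 10 members in the endothelial cells. This was not so in B cells, where it was highest for 1 of the 8 members tested, nor in T cells, where it was highest for 2 of 10. Without it 9 members were called in the endothelial cells, and without control replicate 3, control replicate 4 or BG replicate 7 only 3 were called in each case. Gbp3, Gbp7 and Irgm1 were called whichever mouse was left out. DESeq2 called 6 members in these cells and did not call Irgm2. With mitochondrial UMIs limited to 10%, 384 cells of BG mice (18 to 269 per mouse) and 307 of control mice (69 to 85) were left. Of the 7 members that still passed the filter, 0 were called, at this much smaller number of cells. The share of all genes called is not given for the fits of this paragraph, so their counts are not set against it.

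B cells had lower levels of these genes and the largest fold changes, in Irgm1 and Igtp. The class comprised 2292 cells of BG mice and 5930 of control mice, 8 members passed the filter, and 4 were called higher (Gbp4, Irgm1, Irgm2 and Igtp) where 1.23% of genes were. The median log2 fold change of the 8 was 0.75, against 0.0005 over all genes. In 7 of the 8 every BG mouse was above every control mouse, which held for 3.38% of genes.

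Irgm1 was at 70.6, 44.3, 58.4 and 36.7 CPM in B cells of BG mice and at 17.6, 18.0, 13.96 and 11.9 CPM in those of control mice. The groups were far apart, and the log2 fold change was 1.68 (SE 0.19, adjusted p = 1.48e-05). Igtp was at 29.8, 27.2, 17.4 and 25.7 CPM in BG mice and at 11.4, 6.69, 8.61 and 9.84 CPM in control mice (log2 fold change 1.43, SE 0.21, adjusted p = 0.00032). Irgm2 was at 6.62, 6.44, 17.4 and 10.4 CPM in BG mice and at 3.65, 4.60, 3.56 and 4.14 CPM in control mice (log2 fold change 1.31, SE 0.32, adjusted p = 0.0429), which rests on 46 UMIs of BG and 47 UMIs of control mice. Gbp4, the one guanylate-binding protein called in B cells, was at 54.0, 35.8, 44.7 and 39.1 CPM in BG mice and at 26.0, 26.8, 25.5 and 24.9 CPM in control mice. Its groups did not overlap and the log2 fold change was 0.71 (SE 0.14, adjusted p = 0.00713).

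The other 4 members tested in B cells, Gbp2, Gbp3, Gbp5 and Gbp7, had log2 fold changes between 0.61 and 0.80 and did not pass (adjusted p from 0.0615 to 0.208). Iigp1 and Tgtp2 did not pass the filter, with means of 5.62 and 4.47 CPM in BG mice and 2.84 and 1.59 CPM in control mice. Gbp4, Irgm1 and Igtp were called whichever mouse was left out. Irgm2 was lost in 7 of the 8 leave-one-out fits (adjusted p up to 0.232), and without the filter on low counts 7 members were called. DESeq2 called 3 members in B cells and did not call Irgm2.

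RNA that floats free in the suspension enters every droplet. It was gauged from barcodes with few detected genes, which may also hold RNA of damaged cells. In those barcodes 2 of the genes did not overlap between the groups, and the share of all genes that did so was not computed. In barcodes with fewer than 200 detected genes, Irgm1 was at 50.4 to 102 per 1000000 non-mitochondrial UMIs in BG libraries and at 17.4 to 47.1 in control libraries. Irgm2 was at 30.7 to 77.5 in BG and at 4.12 to 17.4 in control libraries, and for the other 8 members the ranges overlapped. The Irgm2 values of control libraries rest on 1 to 4 UMIs each. As a gauge of how much foreign RNA the classes held, the 6 T cell markers summed to 44.6 to 79.7 CPM in B cells of BG mice and to 48.7 to 84.7 CPM in those of control mice, compared with 4237 to 5216 CPM in T cells. The 8 endothelial markers summed to 61.6 to 80.3 CPM in B cells of BG mice and to 48.9 to 65.5 CPM in those of control mice. In the same cells the monocyte list was at 53.5 to 156 CPM in BG and 41.1 to 61.8 CPM in control mice. The NK list was at 99.6 to 302 CPM in BG and 33.8 to 195 CPM in control mice. Each of these lists overlapped between the groups, with higher means in BG mice for all but the T cell list. Cells that passed a second such list had been set aside before, which limits these sums. The part of free RNA in the rise of Irgm1 and Irgm2 was not tested.

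T cells, the most numerous class (9005 cells of BG and 11028 of control mice), had all 10 members above the filter and 2 called higher, Iigp1 and Irgm1, where 2.15% of genes were called higher. The median log2 fold change of the 10 was 0.32, against -0.01 over all genes, all 10 were positive, and in 4 every BG mouse was above every control mouse, as was the case for 6.26% of genes. Irgm1 was at 80.04, 55.4, 63.0 and 63.9 CPM in BG mice and at 41.4, 46.0, 35.0 and 37.6 CPM in control mice (log2 fold change 0.71, SE 0.12, adjusted p = 0.00326). Iigp1 was at 34.7, 28.1, 29.1 and 41.9 CPM in BG mice and at 27.7, 18.0, 15.1 and 20.0 CPM in control mice (log2 fold change 0.71, SE 0.17, adjusted p = 0.035). The lowest BG and the highest control mouse were close for Iigp1 and well apart for Irgm1. The sum of the 8 classical monocyte markers was also higher in T cells of every BG mouse, at 545 to 766 CPM compared with 428 to 486 CPM in control mice. That list contains Ly6c2 and Ccr2, which T cells also transcribe, so the sum need not be monocyte RNA. Its part was not tested.

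Of the 8 members not called in T cells, Igtp and Gbp3 came nearest. Igtp, whose level in T cells was high, was at 129, 124, 112 and 132 CPM in BG mice and at 92.5, 99.7, 92.9 and 114 CPM in control mice (log2 fold change 0.32, SE 0.08, adjusted p = 0.0582). Gbp3 had a log2 fold change of 0.42 (SE 0.11, adjusted p = 0.0586), and Gbp5 the smallest of the 10, 0.08 (SE 0.10, adjusted p = 0.714). The call of Iigp1 was lost without control replicate 2, 3 or 4 or BG replicate 5 or 8, which left 1 call in each of these fits, and Irgm1 was called whichever mouse was left out.

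**Figure D3:**
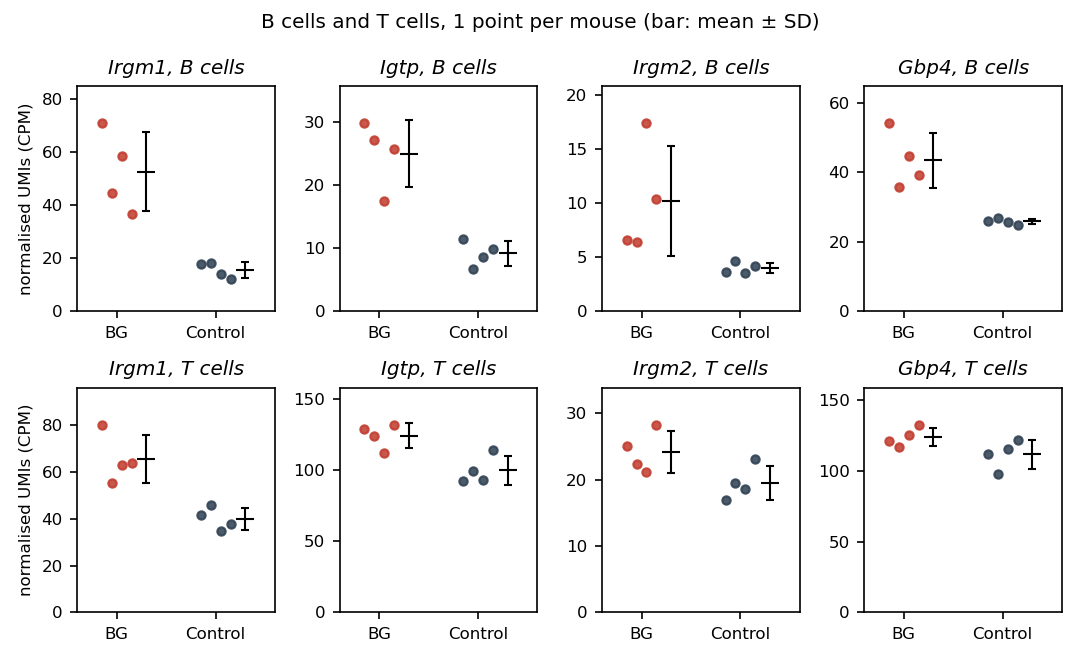
Normalised UMIs (CPM, axes from 0) of Irgm1, Igtp, Irgm2 and Gbp4 in B cells (upper row) and T cells (lower row), 1 point per mouse, BG (red) left of Control (dark), with bars for the mean ± SD of 4 mice. In B cells all 4 genes separate the groups, and in T cells only Irgm1 does, with a lowest BG value of 55.4 CPM and a highest control value of 46.0 CPM.

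Within the T cells, the nested subsets gave few calls. In Cxcr6+ CD4 T cells (880 cells of BG and 776 of control mice) 1 of 9 members tested was called higher, where 1.46% of genes were. Iigp1 was at 54.6, 36.9, 45.0 and 42.3 CPM there in BG mice and at 18.6, 31.5, 22.7 and 22.5 CPM in control mice, without overlap (log2 fold change 0.93, SE 0.22, adjusted p = 0.0262). In the other CD4 T cells (563 and 576 cells) 1 of 7 was called, where 0.873% of genes were. That was Gbp7, at 179, 181, 191 and 197 CPM in BG mice and at 124, 90.9, 117 and 139.6 CPM in control mice (log2 fold change 0.66, SE 0.15, adjusted p = 0.0185).

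In CD8 T cells (1093 cells of BG and 1412 of control mice) 0 of 10 members was called by edgeR, where 0.985% of genes were called higher, 3 had an unadjusted p under 0.05 and DESeq2 called 0. The member nearest to a call was again Irgm1 (log2 fold change 0.65, SE 0.18, adjusted p = 0.0837). The NK marker list was higher in the other CD4 T cells of every BG mouse, at 374 to 535 CPM compared with 211 to 342 CPM in control mice, and its part in the Gbp7 difference was not tested. The monocyte markers, which include Ly6c2 and Ccr2, were likewise higher in the Cxcr6+ CD4 T cells of every BG mouse (600 to 816 CPM, against 470.3 to 577 CPM in control mice). The plasmacytoid dendritic markers were lower there (58.2 to 112 CPM in BG mice, against 125.5 to 149.8 CPM in control mice). The part of either list in the Iigp1 difference was not tested. Each CD4 call was lost in 5 of the 8 fits that left out a mouse (Iigp1 without control replicate 1, 3 or 4 or BG replicate 5 or 7, Gbp7 without control replicate 1, 2 or 3 or BG replicate 7 or 8). DESeq2 did not call Gbp7 (adjusted p = 0.0956) and gave Iigp1 no adjusted p.

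In plasmacytoid dendritic cells, the main makers of type I interferon, 1 of 4 members tested was called higher, where 0.624% of genes were. Irgm1 was at 90.4, 60.9, 67.3 and 82.2 CPM in BG mice and at 20.9, 44.7, 43.6 and 43.7 CPM in control mice. The groups did not overlap, with a log2 fold change of 0.84 (SE 0.20, adjusted p = 0.0381). Iigp1 had 26.9 to 71.2 CPM in BG mice and 6.48 to 36.3 CPM in control mice and did not pass (log2 fold change 0.98, SE 0.35, adjusted p = 0.295). In the same cells the classical monocyte list, which contains Ly6c2, a gene that plasmacytoid cells also express, summed to 3095 to 4123 CPM in BG mice and to 1723 to 1843 CPM in control mice. The endothelial list was at 109 to 134 CPM in BG mice and at 83.9 to 99.9 CPM in control mice, and the part of either list was not tested. The call of Irgm1 was lost with DESeq2 (adjusted p = 0.184) and without control replicate 1 or 3 or BG replicate 5, 7 or 8.

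The macrophage classes held few cells, and no member was called in them. Kupffer cells, the resident macrophages of the liver, comprised 185 cells of BG mice and 152 of control mice, and control replicate 1, with 8 cells, was left out of their test. Only Gbp7 and Iigp1 passed the filter, and edgeR called 0 of the 2, where 0.561% of genes were called higher. At an unadjusted p under 0.05 there was 1, and DESeq2 called 0 and gave none of the 10 an adjusted p. Iigp1 was at 168, 157, 187 and 183 CPM in BG mice and at 171, 89.8 and 23.1 CPM in control mice (log2 fold change 1.10, SE 0.40, adjusted p = 0.208). The BG mice were close together and the control mice wide apart. Gbp7 was at 145, 105, 200.2 and 215 CPM in BG mice and at 97.8, 167 and 208 CPM in control mice (log2 fold change 0.08, SE 0.32, adjusted p = 0.931).

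Without the filter on low counts all 10 members were tested in Kupffer cells, and edgeR called 0 (3 had an unadjusted p under 0.05, lowest adjusted p = 0.481). Of the 8 below the filter, 7 overlapped between the groups. The exception, Gbp5, was at 78.3, 105, 60.1 and 108 CPM in BG mice (30 UMIs) and at 0, 25.6 and 57.7 CPM in control mice (9 UMIs), and among the genes that passed the filter 7.12% had every BG mouse above every control mouse. The Kupffer cell markers themselves were at 14161 to 14718 CPM in BG and 9036 to 13560 CPM in control mice, and the classical monocyte list at 1233 to 2486 CPM in BG and 2538 to 5881 CPM in control mice. The NK list was at 572 to 837 CPM in BG and 238 to 446 CPM in control mice. All 3 lists thus differed between the groups, with Chil3, Vcan and F13a1 of the monocyte list at 0, and their part in the values above was not tested. The depth was 47862 to 190417 UMIs per BG mouse. Of 813 cells that passed the Kupffer list, 376 also passed the T cell list and were set aside.

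Classical monocytes and monocyte-derived macrophages (205 cells of BG and 184 of control mice) had 6 members above the filter, and edgeR called 0, where 2.02% of genes were called higher. At an unadjusted p under 0.05 there were 0, and DESeq2 called 0 of the 3 members it gave an adjusted p. The median log2 fold change of the 6 was 0.16 (-0.0003 over all genes). Gbp2 was at 161, 154, 172 and 321 CPM in BG mice and at 246, 130.1, 135 and 161 CPM in control mice (log2 fold change 0.20, SE 0.25, adjusted p = 0.846). The groups overlapped for this gene and for each of the other 5.

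NK cells and bile duct cells gave no calls either. In NK cells 2 members passed the filter, Gbp4 and Gbp7, with log2 fold changes of -0.02 (SE 0.26) and 0.14 (SE 0.23). EdgeR called 0 of them, where 0.305% of genes were called higher, 0 had an unadjusted p under 0.05, and DESeq2 called 0 and gave none an adjusted p. In bile duct cells Iigp1 had a log2 fold change of 0.97 (SE 0.33, adjusted p = 0.534) and Irgm1 one of 0.33 (SE 0.32, adjusted p = 0.919). EdgeR called 0 of these 2, where 0.328% of genes were called higher, 1 had an unadjusted p under 0.05, and DESeq2 called 0.

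The responses of cell classes of the same mice were then compared directly, by an interaction term with the mouse as a block, for 6 pairs of classes. Gbp3 responded more strongly in sinusoidal endothelial cells than in T cells, and Irgm1 and Igtp more strongly in B cells than in T cells. For endothelial cells against T cells, 1 of 10 members was called, where 0.253% of genes were called higher: Gbp3, with a difference in log2 fold change of 0.96 (SE 0.20, adjusted p = 0.0291). Gbp7 followed with 0.72 (SE 0.17, adjusted p = 0.0573), whereas the difference was -0.04 (SE 0.13, adjusted p = 0.957) for Iigp1 and 0.12 (SE 0.12, adjusted p = 0.807) for Irgm1. For B cells against T cells, 2 of 10 were called, where 0.504% of genes were called higher: Irgm1 with 0.98 (SE 0.16, adjusted p = 0.00237) and Igtp with 1.08 (SE 0.19, adjusted p = 0.00349).

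**Figure D4:**
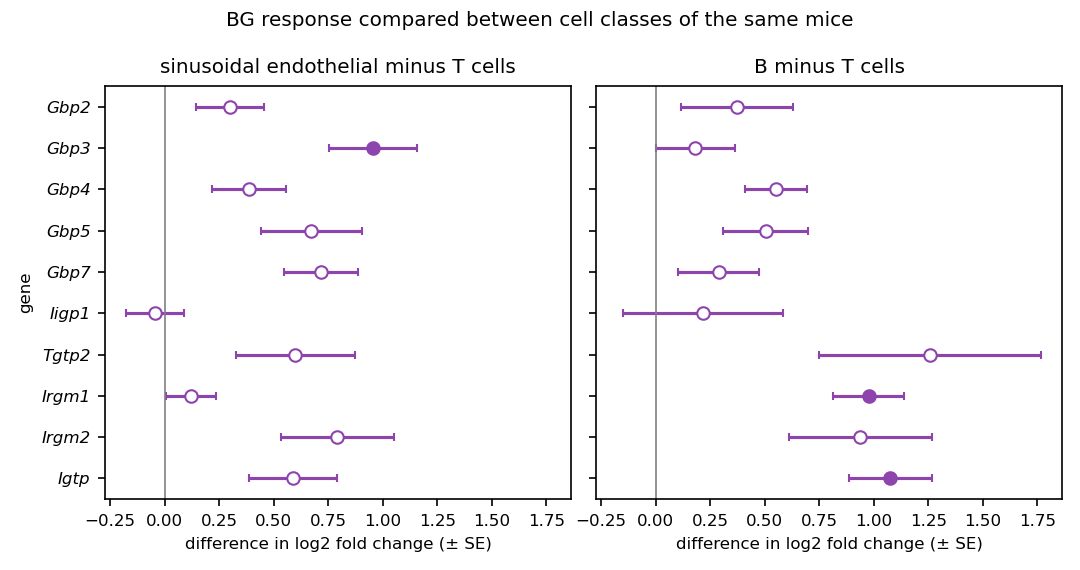
Difference in log2 fold change (BG over Control) between 2 classes of the same mice, with its standard error, for the 10 genes, in sinusoidal endothelial minus T cells (left) and B minus T cells (right), with filled points for called genes. Gbp3 is called on the left (0.96) and Irgm1 (0.98) and Igtp (1.08) on the right, and Iigp1 lies at -0.04 on the left.

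The B cell differences were called whichever mouse was left out, while that of Gbp3 was lost without control replicate 3 or 4 or BG replicate 7. Without control replicate 1, 5 members were called between endothelial and T cells (Gbp3, Gbp4, Gbp7, Irgm2 and Igtp). For the pairs with Kupffer or NK cells edgeR called no member. Of all genes, 0% were called higher and 0.0289% lower for Kupffer cells against monocytes, 0.0552% higher and 0.124% lower against endothelial cells, 0.074% higher and 0.0278% lower against T cells, and 0.0393% higher and 0% lower for NK cells against T cells. At an unadjusted p under 0.05 there were 0 members for Kupffer cells against monocytes and for NK cells against T cells, 3 for Kupffer against endothelial cells and 2 for Kupffer against T cells. The 3 were Gbp3, Gbp7 and Irgm2, all with a lower fold change in Kupffer cells (-1.07, -1.09 and -1.79). Gbp3 and Irgm2 had not passed the filter in Kupffer cells alone. Control replicate 1, with 8 Kupffer cells, was left out of both classes in every Kupffer pair, also for the levels below. In endothelial cells that mouse was the highest control for all 10 members, so leaving it out bears on these differences. DESeq2 was not run on these interactions.

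The levels of the 10 genes also differed between cell classes, and most of all for Iigp1. In BG mice it averaged 743 ± 50.7 CPM in endothelial cells (SD, n = 4), 174 ± 13.8 in Kupffer cells, 126 ± 49.1 in bile duct cells, 45.3 ± 21.7 in plasmacytoid dendritic cells, 33.5 ± 6.33 in T cells, 31.4 ± 16.6 in monocytes and 5.62 ± 1.85 in B cells. In control mice it averaged 473 ± 126 CPM in endothelial cells, 94.7 ± 74.2 in Kupffer cells (n = 3), 74.6 ± 27.2 in bile duct cells (n = 3), 28.7 ± 30.7 in monocytes, 20.2 ± 5.37 in T cells, 19.2 ± 12.9 in plasmacytoid dendritic cells and 2.84 ± 0.861 in B cells. In control mice all endothelial values lay above those of Kupffer cells, and the classes named from there down to plasmacytoid dendritic cells each overlapped with the next, while all B cell values lay below those of plasmacytoid dendritic cells. In NK cells Iigp1 had 1 UMI in BG mice and 0 UMIs in control mice, where 572743 UMIs were counted, which allows up to 5.24 CPM (3 counts over the group, counting error only).

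With the mouse as a block, 4 members were higher in endothelial cells than in T cells of control mice (32.7% of genes were called higher) and 1 lower (31.1% of genes). Most genes differ in level between these 2 classes, so these counts are not particular to the members. Iigp1 was higher by 4.27 on the log2 scale (SE 0.10, adjusted p = 1.32e-21), Irgm1 by 1.46 (SE 0.09), Irgm2 by 1.10 (SE 0.21) and Gbp3 by 0.53 (SE 0.16, adjusted p = 0.00598). The Gbp3 difference was near the limit of 0.5 and was not called without control replicate 2 or 3, nor without the filter on low counts, with the stricter gate, with up to 5000 genes per cell or with cells of several lists kept (0.34 to 0.49), and it had the opposite sign with mitochondrial UMIs limited to 10% (-0.62, adjusted p = 0.175), and without control replicate 1, 8 members were called in all. Igtp, the regulator with its highest mean in T cells among the 10 classes, was lower in endothelial cells, with a log2 difference of -1.46 (SE 0.15, adjusted p = 3.77e-09). B cells had lower levels than T cells of 8 members (21.3% of genes were called lower), from -1.24 for Irgm1 to -3.26 for Igtp on the log2 scale, and only Gbp3 (0.40) and Gbp5 (-0.45) differed by less than the limit of 0.5.

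Kupffer cells had more Gbp3, Iigp1 and Irgm2 than T cells of control mice (13.6% of genes were called higher), by 1.57, 1.63 and 1.33 on the log2 scale, and less Gbp4 and Igtp (14.2% called lower), at -1.52 and -1.54. Against endothelial cells, Kupffer cells had more Gbp3 (1.09, where 16.2% of genes were called higher) and less Gbp4, Iigp1 and Irgm1 (-1.17, -2.60 and -1.35, where 20% were called lower). Against monocytes they had less Gbp2 and Irgm1 (-1.20 and -1.06, where 15.2% were called lower). The counts against endothelial cells and monocytes stand near the shares of all genes and are not particular to the members. Without control replicate 3, 2 of the 5 differences from T cells were called, and without control replicate 4, 2 of the 4 from endothelial cells. Gbp3 against endothelial cells was lost whichever control mouse was left out. Against monocytes, Gbp2 was lost without control replicate 2 or 4, and Irgm1 (adjusted p = 0.0496) in 6 of the 7 fits that left out a mouse.

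NK cells had lower levels than T cells of 4 members in control mice (6.68% of genes were called lower). These were Igtp (-1.97, SE 0.28), Irgm1 (-1.92, SE 0.44), Gbp2 (-1.38, SE 0.39, lost without control replicate 2, 3 or 4) and Iigp1, which had no UMI in NK cells of control mice and for which no fold is given. Gbp4 and Gbp7 were high in both classes, Gbp7 at 180.5 ± 13.2 CPM in NK cells of BG mice and 163 ± 18.4 CPM in those of control mice.

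**Figure D5:**
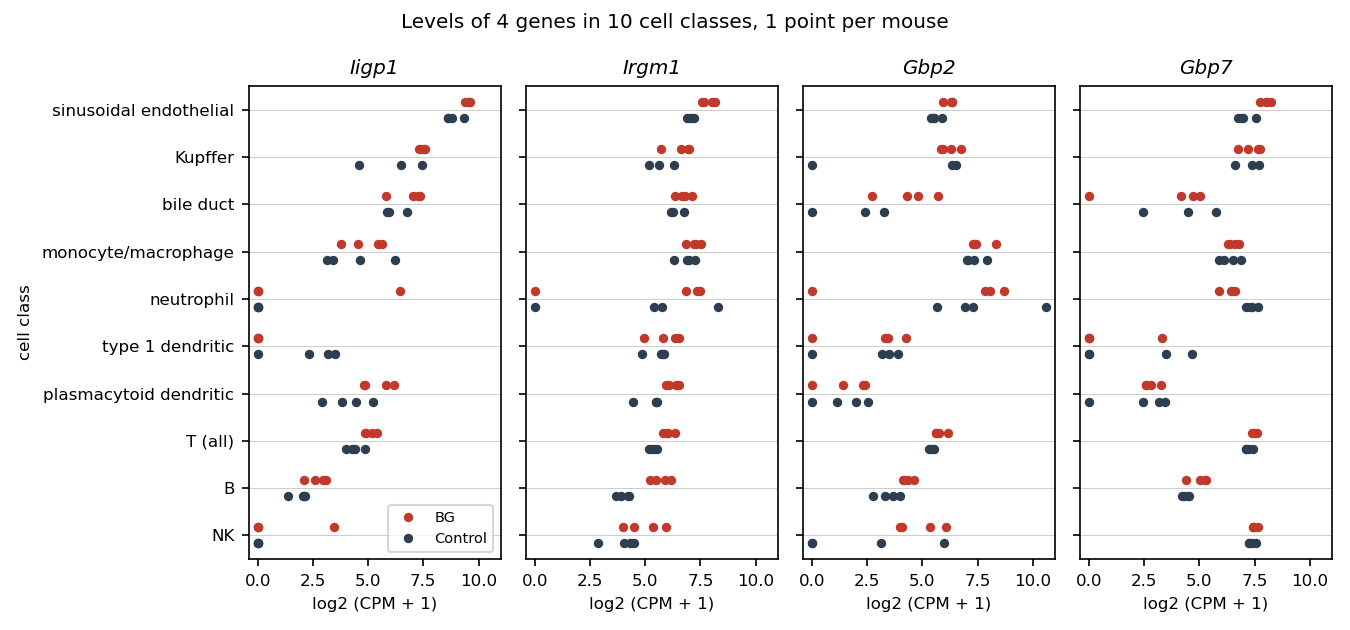
Levels of Iigp1, Irgm1, Gbp2 and Gbp7 as log2 (CPM + 1) in 10 cell classes, 1 point per mouse, BG (red) above Control (dark) in each class. Iigp1 is highest in sinusoidal endothelial cells (means of 743 CPM in BG and 473 CPM in control mice), Gbp2 in neutrophils and monocytes, and points at 0 are mice with no UMI of the gene in that class.

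The order of classes differed from gene to gene. In control mice Irgm1 was highest in endothelial cells (134 ± 13.2 CPM), followed without separation by monocytes (118 ± 30.8 CPM), and lowest in NK and B cells. Gbp2 was highest in neutrophils and monocytes, at 227 ± 172 and 202 ± 79.5 CPM in BG mice and at 469 ± 721 and 168 ± 53.6 CPM in control mice. The neutrophil mean of control mice rests on control replicate 1, at 1549 CPM, compared with 49.2 to 157 CPM in the other 3 mice. Gbp3 and Gbp5 had their highest control means in monocytes (75.7 ± 24.8 and 71.2 ± 20.4 CPM), overlapping with those of Kupffer cells. Gbp4 was highest in NK cells, endothelial cells and T cells (142 ± 46.9, 137 ± 55.3 and 112 ± 10.2 CPM in control mice), and the T cells lay above all plasmacytoid dendritic cells. For Gbp7 and Irgm2 neutrophils had the highest control means (164 and 75.3 CPM), and monocytes averaged 82.9 and 35.9 CPM. The neutrophil values rest on 19 and 9 UMIs, taken per UMIs of only 397 genes. The place of neutrophils in the order of these 2 genes is therefore uncertain. Tgtp2 averaged 1.59 to 13.9 CPM over the 10 classes in control mice.

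Across the 78 sums of class and mouse (10 classes, 2919 genes with a mean of at least 50 CPM), the genes whose levels followed each member most closely were found by Pearson correlation of log2 CPM, as a description only, since sums of a class share depth and sums of a mouse share the library. Iigp1 was most like Itga9 (0.78), Gbp7 like Xdh (0.79), Irgm1 like Tmem256 (0.77), Gbp4 like Gimap1 (0.77), Igtp like Lgals9 (0.73), Irgm2 like Mapk3 (0.72), Gbp3 like Parp14 (0.71), Gbp2 like Cxcl10 (0.66), Gbp5 like Ms4a6b (0.65) and Tgtp2 like Gpihbp1 (0.49). Within the 10, Gbp3 and Gbp5 were most alike (0.73).

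Upstream of these genes, the ligand Ifng was called in 0 of the 7 classes where it was tested (lowest adjusted p 0.236). It is made by T and NK cells, and averaged 526 CPM in NK cells of BG mice and 469 CPM in those of control mice (log2 fold change 0.14, adjusted p = 0.806), and 257 CPM in T cells of BG mice and 297 CPM in those of control mice (-0.21, adjusted p = 0.236). Of the genes of signalling, Irf9, which takes part in the response to type I interferon, had a log2 fold change of 0.72 in endothelial cells (SE 0.11, adjusted p = 0.00087) and was called higher. Irf1, a transcription factor that interferon gamma induces directly, was tested in 11 classes and called in none (log2 fold changes from -0.50 to 0.54).

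Of 15 further guanylate-binding and immunity-related GTPases and Mx genes, 11 were tested and 6 called higher and 0 lower in at least 1 class. In endothelial cells, where 1.23% of all genes were called higher, 5 of 8 were called, namely Gbp6 (log2 fold change 1.35), F830016B08Rik (1.04), Ifi47 (0.83), Gm4951 (0.80) and Gbp9 (0.58). Of 25 other interferon gamma targets, 22 were tested and 11 called higher and 4 lower in at least 1 class. In endothelial cells 5 of 19 were called, among them the T cell attractants Cxcl9 (1.41, SE 0.17, adjusted p = 4.63e-05) and Cxcl10 (1.24, SE 0.17, adjusted p = 0.000214), Serpina3g (0.69), the immunoproteasome subunit Psmb8 (0.64) and Tapbp, which loads peptides onto MHC class I (0.51). The 4 genes called lower (H2-Aa, H2-Ab1, H2-Eb1 and Cd74, of MHC class II presentation) were lower in the other CD4 T cells, where the 6 B cell markers summed to 3.20 to 9.66 CPM in BG mice and to 9.59 to 51.5 CPM in control mice, and 3 of them (H2-Ab1, H2-Eb1 and Cd74) were called higher in bile duct cells.

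Of the 30 type I interferon genes listed, all 30 were called higher in at least 1 class. This list was chosen with earlier results of these data known, so its counts and medians describe it and are no test. In endothelial cells 26 of 28 were called higher with a median log2 fold change of 1.44, in B cells 24 of 26 with 1.98, and in T cells 27 of 30 with 1.30, compared with members' medians of 0.76, 0.75 and 0.32. In monocytes 15 of 21 were called higher and in Kupffer cells 4 of 16, where 0 members were. Of all genes, 1.23% were called higher in endothelial cells, 1.23% in B cells, 2.15% in T cells, 2.02% in monocytes and 0.561% in Kupffer cells. The 5 largest in endothelial cells were Ifit3 (2.47), Ifit1 (2.32), Ifit3b (2.21), Irf7 (2.15) and Ifi44 (2.03). The difference between the lists was not tested.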

How the data were processed

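Liver cells of 8 mice were profiled by 3′ droplet single-cell RNA sequencing. The authors' deposited matrices hold raw UMI counts per gene and barcode (Cell Ranger 6.1.2 per the file headers, mouse build GRCm38). Cells with 200 to 2500 detected genes and at most 30% mitochondrial UMIs were kept. A cell passed a list when it held UMIs of at least 3 of its markers (4 for classical monocytes). It entered the class whose list it held the largest share of. Cells passing lists of several lineages, or with equal shares, were set aside as possible doublets. The lists of Kupffer cells, monocytes, dendritic cells and neutrophils counted as the same lineage, so a cell passing several of these was kept. No doublet caller was run. No deposited cell annotation was used, so classes may differ from those of the study.

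UMI counts were summed per mouse and class. Sums of fewer than 10 cells were left out, and classes needed 3 or more mice in each group. BG was tested against Control with edgeR 4.0.16 (R 4.3.3, limma 3.58.1), using TMM scaling, filterByExpr and the quasi-likelihood test, with Benjamini-Hochberg adjustment over all genes tested in the class. Calls needed an adjusted p under 0.05 and a log2 fold change beyond 0.5. Class pairs were fitted with the mouse as a block. CPM values of members use TMM-scaled totals of the genes that passed the filter in the class. The fits were tested on simulated data.

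All 10 genes are named. Of each pathway list the values of at most 5 called genes with the largest fold change in endothelial cells are given, and for each member the non-member of at least 50 CPM with the highest correlation. Genes named beyond this rule (Ifng, Irf1 and the class II genes) were chosen after their values were seen. The members and lists were chosen with earlier results of these data known. Alternatives were DESeq2 1.42.0, RLE scaling, other filters and gates, and leaving out each mouse. Reported intervals of 0 counts cover counting error only. Non-classical monocytes, type 2 dendritic cells, basophils and stellate cells had too few cells to test. Results for 1 item are not reported here.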

Additional observations from a re-analysis of the deposited data

Results flagged for a closer look

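In the sinusoidal endothelial cells, control replicate 1 lay far from the other 3 control mice for Tgtp2 (21.4 CPM, against 8.84 to 9.21 CPM in the others) and Irgm2 (96.2 CPM, against 34.9 to 45.0 CPM). In plasmacytoid dendritic cells the same mouse was far below the others for Irgm1 (20.9 CPM, against 43.6 to 44.7 CPM). These were 3 of 62 groups of 4 mice examined, and chance alone gives about 1 in 20.

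The BG response differed between cell classes of the same mice, by the interaction term of edgeR's quasi-likelihood test, for 3 genes. The difference in log2 fold change was 0.96 for Gbp3 in endothelial cells against T cells (adjusted p = 0.0291), 0.98 for Irgm1 in B cells against T cells (adjusted p = 0.00237) and 1.08 for Igtp in B cells against T cells (adjusted p = 0.00349).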

How the results depend on the processing

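Of 336 counts of called members recomputed under alternatives, 275 stayed within 1.5 times the reported count. These include counts of 0 that stayed 0. Kupffer cells, monocytes, NK cells and bile duct cells gave 0 throughout, as did the responses of the pairs with Kupffer or NK cells. The share of 275 therefore overstates how stable the other counts were. With mitochondrial UMIs limited to 10%, the count was 0 in endothelial cells, in Cxcr6+ CD4 T cells, in the other CD4 T cells and for the response of endothelial against T cells, and the Gbp3 level difference between endothelial and T cells was -0.62 (adjusted p = 0.175). B, bile duct, Kupffer, NK and plasmacytoid dendritic cells could not be tested at that limit. Keeping cells that passed several lists, chosen after seeing the data, gave 4 calls in endothelial cells, 1 in CD8 T cells, 0 in Cxcr6+ CD4 T cells and 0 for the endothelial against T cell response. Without the filter on low counts there were 7 calls in B cells, 1 in CD8 T cells, 2 in the other CD4 T cells, 1 for the Kupffer against monocyte level and 4 for the endothelial against T cell response. The stricter gate gave 0 in both CD4 classes, in plasmacytoid dendritic cells and for the endothelial against T cell response, and 4 for the Kupffer against monocyte level. A limit of 5000 genes per cell gave 0 in plasmacytoid dendritic cells and 1 for that level. Leaving out cells with a T cell gene gave 2 for the endothelial against T cell response. DESeq2 gave 0 in the other CD4 T cells and in plasmacytoid dendritic cells, and no count in Cxcr6+ CD4 T, Kupffer and NK cells, where the adjusted p needed was missing. The causes were not tested. Shares of all genes called are given above only for the main fits and for those without BG replicate 5. Leaving out 1 mouse at a time gave 3 to 9 calls in endothelial cells, 3 to 6 in B cells, 1 to 2 in T cells, 0 to 1 in CD8 T, Cxcr6+ CD4 T and plasmacytoid dendritic cells, 0 to 2 in the other CD4 T cells, and 0 to 5 (endothelial against T cells) and 2 to 3 (B against T cells) for responses. For levels it gave 0 to 2 (Kupffer cells against monocytes), 2 to 4 (against endothelial cells), 2 to 5 (against T cells), 4 to 8 (endothelial against T cells), 8 to 9 (B against T cells) and 3 to 4 (NK against T cells). No paired analysis was possible because the BG and Control mice share no replicate numbers.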
